A study of Mus musculus with 30 samples.

Results

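The genes described are 10 neuropeptide precursors of the cortex and striatum, Cort, Sst, Npy, Vip, Cck, Tac1, Tac2, Penk, Pdyn and Crh, out of 34871 genes in the deposited table of mouse brain RNA. They were chosen by gene symbol: Cort and Tac1 because they were called in Tmem106b -/- against Tmem106b +/+ brains, and the other 8 as further peptides of interneurons and striatal neurons. All 10 were found, once each, and all 10 were among the 23695 genes kept because their mean deposited value was above 0. The Tmem106b protein spans the membrane of the lysosome. RNA came from the cerebral hemispheres of 30 mice aged 8 months, 10 Tmem106b +/+ (WT), 10 Tmem106b +/- (HET) and 10 Tmem106b -/- (KO), and each genotype had 6 mice in cohort 1 and 4 in cohort 2, with as many females as males in each. The labels do not state the strain, how the allele was made or what distinguishes the cohorts.

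Neuropeptides are made as precursor proteins, cut by proprotein convertases inside dense-core vesicles, and released by neurons to act on G protein-coupled receptors. In the cortex, somatostatin (Sst), cortistatin (Cort), neuropeptide Y (Npy), vasoactive intestinal peptide (Vip), corticotropin-releasing hormone (Crh) and tachykinin 2 (Tac2) are made mostly by subsets of inhibitory interneurons, and cholecystokinin (Cck) by interneurons and many excitatory neurons. In the striatum, Tac1, the substance P precursor, and Pdyn, the dynorphin precursor, belong to the projection neurons with the dopamine receptor Drd1, and Penk, the enkephalin precursor, to those with Drd2. Several of these genes are known targets of the transcription factor CREB, which binds the cAMP response element.

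RefSeq promoter sequences (build GRCm38.p6, 250 bases before the annotated start) were matched by symbol for 8 of the 10 genes, Penk and Crh being the other two. They were searched on both strands for the palindromic cAMP response element TGACGTCA and for a shorter form, TGACGCA, which reads TGCGTCA on the other strand. The search found 1 exact match in each of 4 genes and none in Npy, Vip, Tac2 and Pdyn. Near matches were not counted, and the Vip promoter holds TGACGTCT, which differs from the palindrome only in its last base. Among all 32851 promoters of the table, 1.55% held TGACGTCA, 1.75% held the shorter form and 3.23% held either. The sequences with a match are shown because 2 of the genes, Cort and Tac1, are those that differed between KO and WT, and because Sst and Cck varied together from brain to brain. Capitals mark the match, and each sequence ends at the last base before the RefSeq start. For Tac1 the deposited table gives an earlier start, 7554879, which lies within the printed sequence.
Sst, chr16:23890845-23890964, minus strand: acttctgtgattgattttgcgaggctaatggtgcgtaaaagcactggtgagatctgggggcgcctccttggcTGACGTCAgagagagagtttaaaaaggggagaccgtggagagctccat
Cort, chr4:149126764-149126883, minus strand: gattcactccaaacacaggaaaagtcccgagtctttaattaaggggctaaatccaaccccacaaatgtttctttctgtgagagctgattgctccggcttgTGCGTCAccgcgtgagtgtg
Cck, chr9:121495695-121495814, minus strand: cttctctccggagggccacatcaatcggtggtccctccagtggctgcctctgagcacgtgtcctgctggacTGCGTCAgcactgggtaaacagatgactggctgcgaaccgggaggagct
Tac1, chr6:7554841-7555060, plus strand: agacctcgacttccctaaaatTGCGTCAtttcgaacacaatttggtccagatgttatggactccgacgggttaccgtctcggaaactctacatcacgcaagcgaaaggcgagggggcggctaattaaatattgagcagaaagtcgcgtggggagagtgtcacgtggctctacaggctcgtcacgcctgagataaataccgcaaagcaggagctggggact
The first base of the match lay 48 bases before the RefSeq start in Sst, 20 in Cort, 49 in Cck and 199 in Tac1. The full element was found in Sst and the shorter form in the other three. A match is a run of letters, and binding was not measured.

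The deposited values are log2 RPKM after conditional quantile normalization, which corrects for gene length and GC content and draws the libraries together, and all levels below are on this scale. Library medians lay between 2.82 and 2.91. Lower quartiles, set by genes with few reads, ran from -1.20 to -0.29 in males and from -0.41 to -0.07 in females. No pair of libraries was identical. Tmem106b was 9.06 to 9.27 in WT, 8.54 to 8.63 in HET and 7.43 to 7.67 in KO, so every library matched its genotype label. The KO brains still held Tmem106b RNA, whose level fell by 68.0% against WT, and which part of the transcript the allele removes was not analysed here. The RNA integrity number (RIN) averaged 9.40 ± 0.28 for WT libraries, 9.23 ± 0.22 for HET and 9.35 ± 0.49 for KO (SD, n = 10 each). In whole hemispheres, fewer cells of a type and less RNA per cell cannot be told apart.

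The 10 precursors ranged from below the middle of all genes kept to near the top. Averaged over the 30 brains, Cck was highest at 11.29 and Penk next at 11.18, followed by Sst at 10.81 and Npy at 9.36, and these 4 lay above at least 95.7% of the genes kept. Vip stood at 7.94, Tac1 at 7.08, Pdyn at 6.90 and Tac2 at 6.70. Crh, at 5.23, and Cort, at 4.64, were the lowest, with Cort above 42.6% of genes. Neighbours in this order were not always apart. Cck exceeded Penk in 23 of 30 brains, with a mean difference in log2 level of 0.11 and an SD of 0.14 that was larger. Tac1 exceeded Pdyn in 28 brains, Pdyn exceeded Tac2 in 27 (difference 0.20, SD 0.20) and Crh exceeded Cort in 29. The 5 other neighbouring pairs kept their order in all 30.

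The spread between mice differed among the genes. The SD between mice of the same genotype was smallest for Sst, at 0.08 log2, and lay between 0.11 and 0.14 for Vip, Cck, Pdyn, Penk, Tac1 and Npy. It was 0.21 for Tac2, 0.24 for Crh and 0.26 for Cort. The same difference is therefore measured less precisely in Cort than in Sst.

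**Figure D1:**
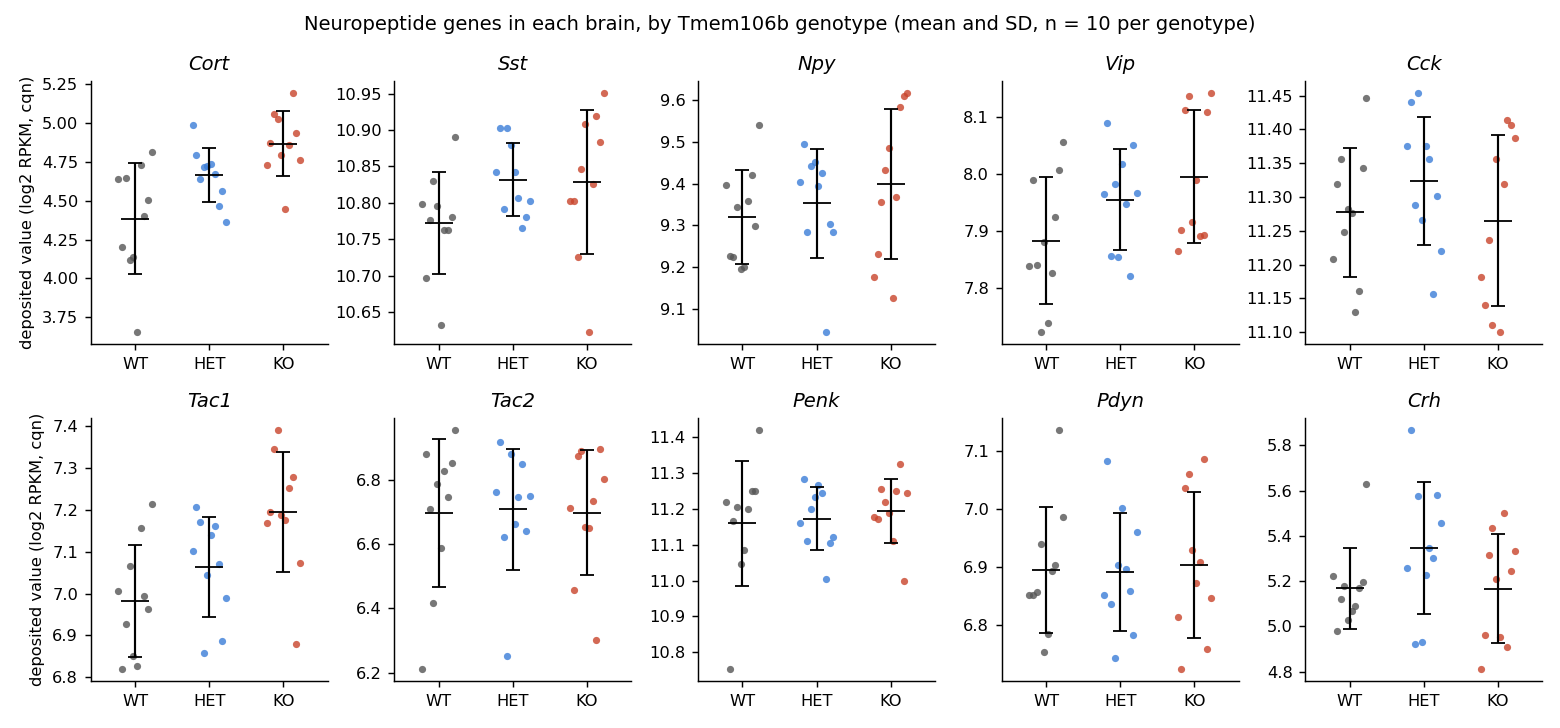
Deposited value (log2 RPKM, vertical axis) of each neuropeptide gene in each of 30 brains, by genotype; each point is 1 brain, and the bar and whiskers are the mean and SD of 10 brains. Cort runs from 3.65 to 4.81 in WT and from 4.45 to 5.19 in KO, and the genotypes overlap in every panel.

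Cort, the somatostatin-related peptide of a subset of cortical interneurons, was higher in KO brains. Its log2 level was 3.65 to 4.81 in WT (median 4.45), 4.36 to 4.98 in HET (median 4.69) and 4.45 to 5.19 in KO (median 4.87). All 10 KO brains lay above the WT mean and 6 of 10 above every WT brain, while 9 of 10 HET brains lay above the WT mean. The KO and WT ranges overlapped. The fitted difference of KO from WT, with sex, cohort and RIN in the model, was 0.49 ± 0.11 (log2 ± SE), or 40.7% on the linear scale, and that of HET from WT was 0.31 ± 0.11. The KO difference chose the gene and the HET difference shares its WT mice, so both are a description. The lowest brain of all, WT replicate 6 at 3.65, lowered the WT mean: without it the KO difference was 0.41 ± 0.09.

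The Cort difference was larger in cohort 1 than in cohort 2. In cohort 1 the WT mean was 4.19 ± 0.33 (SD, n = 6) and the KO mean 4.85 ± 0.26 (n = 6). In cohort 2 the WT mean was 4.67 ± 0.13 (n = 4) and the KO mean 4.90 ± 0.11 (n = 4). KO brains stood at nearly the same level in both cohorts, and WT brains stood lower in cohort 1. Fitted alone, cohort 1 gave a KO difference of 0.65 ± 0.15 and cohort 2 of 0.24 ± 0.10. The difference between the cohorts, -0.41 with a 95% interval of -0.83 to 0.01, was not called (limma interaction, adjusted p = 0.601). Females gave 0.55 ± 0.17 and males 0.43 ± 0.13.

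Tac1, the precursor of substance P and neurokinin A, was also higher in KO brains, by less. Its log2 level was 6.82 to 7.21 in WT (median 6.98), 6.86 to 7.21 in HET (median 7.09) and 6.88 to 7.39 in KO (median 7.19). Of the 10 KO brains, 9 lay above the WT mean and 4 above every WT brain, and the ranges overlapped. The fitted difference from WT was 0.22 ± 0.05 in KO (16.2% on the linear scale) and 0.10 ± 0.05 in HET. Again the KO value chose the gene and the HET value shares its WT mice. In cohort 1 all 6 KO brains, at 7.17 to 7.35, were above all 6 WT brains, at 6.82 to 7.06. In cohort 2 the KO brains spread from 6.88 to 7.39 around a mean of 7.15, and the WT mean was 7.08. Fitted alone, cohort 1 gave 0.31 ± 0.05 and cohort 2 gave 0.08 ± 0.07. The difference between the cohorts was -0.23, with a 95% interval of -0.42 to -0.04, and did not pass over all genes (limma interaction, adjusted p = 0.468).

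**Figure D2:**
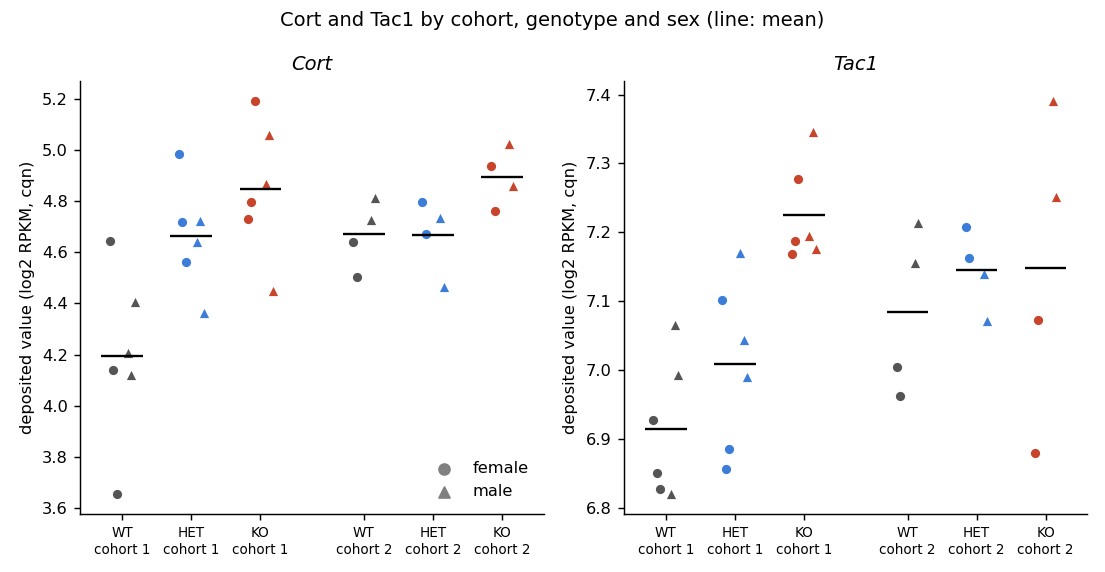
Deposited value (log2 RPKM, vertical axis) of Cort and Tac1 by cohort and genotype; circles are females, triangles males, and each line is the mean of 6 (cohort 1) or 4 (cohort 2) brains. WT brains of cohort 1 lie lowest for both genes, and for Tac1 the 6 KO brains of cohort 1 lie above the 6 WT brains.

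The other 8 precursors differed less between KO and WT. Vip, the marker peptide of disinhibitory interneurons, was 7.72 to 8.06 in WT and 7.86 to 8.14 in KO. That is a difference of 0.11 ± 0.04, with 9 of 10 KO brains above the WT mean. Sst stood at 0.06 ± 0.03 and Npy, which many Sst interneurons also make, at 0.08 ± 0.06. Penk stood at 0.04 ± 0.05, Pdyn at 0.01 ± 0.05, Tac2 at -0.00 ± 0.08, Crh at -0.01 ± 0.09 and Cck at -0.02 ± 0.04. In all, 2 of 10 were called in KO against WT, beside 1.00% of all genes kept, and since that contrast chose Cort and Tac1 nothing is read from the share.

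No precursor was called with 1 Tmem106b copy lost. In HET against WT, which uses the same WT mice, 0 of 10 passed in limma, beside 0.00422% of all genes, which is Tmem106b itself. At an unadjusted p under 0.05 there was 1 of 10, Cort, beside 6.32% of genes. A comparison that KO against WT does not use is HET against the midpoint of WT and KO. Here also 0 of 10 passed, beside 0.00422% of genes (0 of 10 at an unadjusted p under 0.05, beside 5.76%). Cort in HET lay 0.07 log2 above the midpoint (95% interval -0.13 to 0.26, limma adjusted p = 0.954) and Tac1 0.01 below it (-0.10 to 0.08, adjusted p = 0.986). Crh, which drives the stress hormone axis in the hypothalamus and marks interneurons in the cortex, departed most. Its HET brains were 4.92 to 5.87 against 4.98 to 5.63 in WT and 4.81 to 5.50 in KO, 0.16 above the midpoint (-0.01 to 0.33, adjusted p = 0.864).

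**Figure D3:**
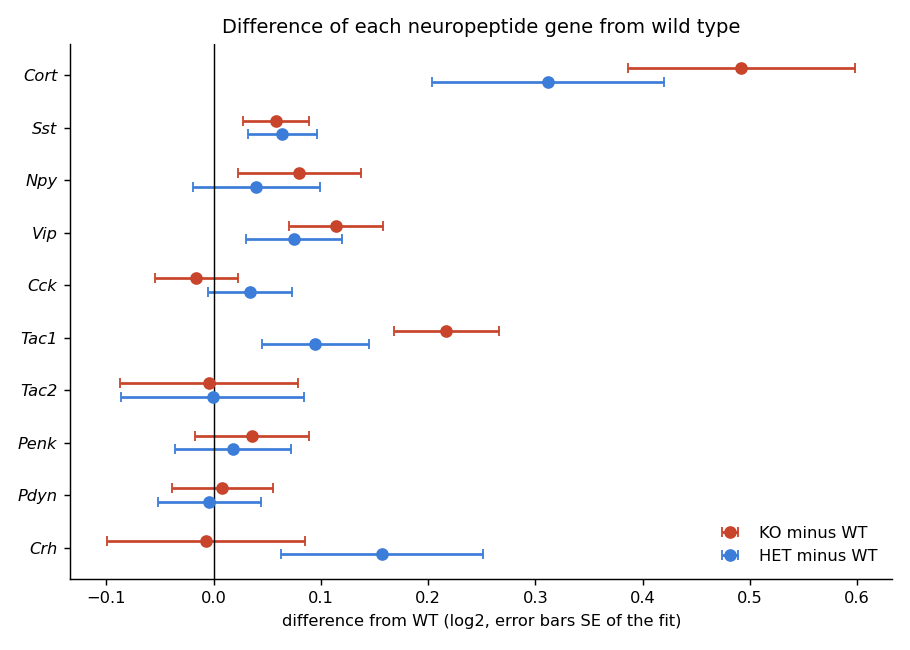
Fitted difference from WT (log2, horizontal axis) of each neuropeptide gene in KO and HET brains; points are estimates over 10 brains a genotype and bars are the SE of the fit. Cort (0.49 in KO, 0.31 in HET) and Tac1 (0.22 and 0.10) lie farthest to the right in KO, and Crh lies at 0.16 in HET and -0.01 in KO.

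All precursors had an estimate above 0 for cohort, and none was called. All 10 were higher in cohort 2 than in cohort 1 with genotype, sex and RIN in the model, with a median of 0.09 log2, while over all genes 52.2% were higher and the median was 0.01. By limma 0 of 10 passed, beside 17.5% of all genes, 8.09% higher and 9.42% lower. At an unadjusted p under 0.05 there were 5 of 10, beside 30.4%. Crh was nearest, at 4.81 to 5.58 in cohort 1 and 5.09 to 5.87 in cohort 2 (0.21 ± 0.08, adjusted p = 0.0655). Cort stood at 0.21 ± 0.09 and Npy at 0.10 ± 0.05. Some of the lists used here also differed by cohort. In these, 6 of 12 interneuron genes without peptides were lower in cohort 2 (median -0.07), and 4 of 12 activity-regulated, 4 of 10 oligodendrocyte and 4 of 8 endothelial genes were higher (medians 0.39, 0.06 and 0.10). Of 20 receptors, 1 was higher and 4 lower, and of 12 processing genes 2 were lower. Of 10 excitatory genes 1 was higher, and of 8 astrocyte genes 1 was lower. The lists of striatal (11 genes), hypothalamic (8), microglia (8), peptide breakdown (7) and other forebrain peptide genes (12) had 0 calls. The part of the lists in the precursors' cohort differences was not tested. The count of precursors is near its threshold: without HET replicate 4, 6 or 9 Crh passed, without HET replicate 8 Npy passed, and without KO replicate 9 Tac1 passed.

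Sex gave 0 of 10 calls, beside 0.333% of all genes (2 of 10 at an unadjusted p under 0.05 in limma, beside 12.5%). The 2 are Cck and Tac1, in opposite directions. Cck was 11.34 ± 0.08 in 15 females and 11.23 ± 0.10 in 15 males, a difference of 0.11 log2 (95% interval 0.04 to 0.17, limma adjusted p = 0.129). Tac1 was 7.03 ± 0.15 in females and 7.14 ± 0.15 in males, a difference of -0.11 (-0.19 to -0.03, adjusted p = 0.233). With no filter on low values both passed, with 9087 of all genes called, 8465 of them higher in females (adjusted p = 0.00856 for Cck and 0.0422 for Tac1). With the lower quartile of each library, which differs by sex as given above, added to the model with the filter, 0 of 10 passed. The fit with the filter gave 0 of 10 without that term too, so this does not bear on the calls made with no filter. Per unit of RIN 0 of 10 passed, beside 0.0633% of genes (0.0127% higher, 0.0506% lower), with 0 of 10 at an unadjusted p under 0.05, beside 10.3%.

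The KO difference was compared between the sexes and between the cohorts with interaction terms. By sex 0 of 10 passed, beside 0% of genes (3 of 10 at an unadjusted p under 0.05 in limma, beside 7.10%). The 3 are Npy, Sst and Cck, each with the KO difference more positive in females. Npy was 9.26 ± 0.09 in WT females and 9.49 ± 0.19 in KO females, but 9.38 ± 0.12 in WT males and 9.30 ± 0.12 in KO males (SD, n = 5 each). The difference between the sexes was 0.31 for Npy (95% interval 0.09 to 0.53, adjusted p = 0.563), 0.16 for Sst (adjusted p = 0.583) and 0.17 for Cck (adjusted p = 0.654), all by limma. By cohort 0 of 10 passed, beside 0.0338% of genes (0.0295% more positive in cohort 2), with 1 of 10, Tac1, at an unadjusted p under 0.05, beside 8.53%.

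From brain to brain within a genotype, the precursors varied in groups. Deviations from the genotype mean were correlated over 30 brains for all 45 pairs. By permutation of Pearson's r with Benjamini-Hochberg adjustment over the 45, 15 pairs passed, all positive. The share that would pass among pairs of other genes was not measured, so the count is not read as a trait of the precursors. The strongest pair was Sst and Npy (r = 0.78, rho = 0.79, both with permutation p = 1e-05, the smallest that 100000 resamples can give, adjusted p = 0.00045). It stood at 0.75 without the 2 brains farthest from the median, 0.74 in cohort 1 and 0.86 in cohort 2. Cck varied with both, at r = 0.64 with Npy (rho = 0.59, permutation p = 0.00012, adjusted p = 0.00207; rho p = 0.00047) and 0.61 with Sst (rho = 0.63, permutation p = 0.00023, adjusted p = 0.00207; rho p = 0.00022). So a brain high in Sst tended to be high in Npy and Cck too.

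The striatal precursors formed another group. Tac1 varied with Pdyn at r = 0.64 (rho = 0.64, permutation p = 0.0002, adjusted p = 0.00207; rho p = 0.00024; 0.60 without the 2 farthest brains, 0.63 in cohort 1, 0.58 in cohort 2). Tac1 varied with Penk, made by the other class of projection neurons, at r = 0.63 (rho = 0.61, permutation p = 0.00019, adjusted p = 0.00207; rho p = 0.00051; 0.50, 0.52 and 0.68). Penk and Pdyn stood at r = 0.53 (rho = 0.69, permutation p = 0.00222, adjusted p = 0.0111; rho p = 5e-05; 0.64, 0.40 and 0.58). Between Tac1 and Sst, r was 0.11, and between Tac1 and Cck -0.19, neither past the test. The 2 groups were not apart for Penk, whose r with Npy and Sst was close to its r with Pdyn. Penk with Npy stood at r = 0.51 (rho = 0.64, permutation p = 0.00303, adjusted p = 0.0136; rho p = 0.00019). Penk with Sst stood at r = 0.48 (rho = 0.51, permutation p = 0.00844, adjusted p = 0.0271; rho p = 0.00441). A further set joined Vip with Crh (r = 0.58, rho = 0.55, permutation p = 0.00076, adjusted p = 0.0057; rho p = 0.00181) and with Tac2 (r = 0.49, rho = 0.59, permutation p = 0.00596, adjusted p = 0.0224; rho p = 0.00086). Vip with Crh was 0.54 in cohort 1, 0.45 in cohort 2 and 0.56 without the 2 farthest brains, and Vip with Tac2 was 0.40, 0.43 and 0.39.

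Cort varied with members of both main groups. Its r was 0.55 with Npy (rho = 0.56, permutation p = 0.00113, adjusted p = 0.00726; rho p = 0.00135), 0.53 with Penk (rho = 0.62, permutation p = 0.004, adjusted p = 0.0164; rho p = 0.00045) and 0.49 with Tac1 (rho = 0.52, permutation p = 0.00656, adjusted p = 0.0227; rho p = 0.00399). Without WT replicate 6 and KO replicate 6, the 2 brains farthest from the median of Cort, these were 0.48, 0.56 and 0.47. Within cohort 1 they were 0.54, 0.44 and 0.43, and within cohort 2 they were 0.46, 0.59 and 0.50. With Sst, the gene that encodes the most similar peptide, r was 0.54 (rho = 0.43, permutation p = 0.00198, adjusted p = 0.0111; rho p = 0.0173), but it was 0.27 without those 2 brains, so that relation rests on them. Of the other pairs that passed, Npy with Vip (r = 0.43, rho = 0.42, permutation p = 0.0162, adjusted p = 0.0487; rho p = 0.0205) was 0.72 in cohort 2 but 0.01 in cohort 1, where it did not hold. The other pairs that passed were Penk with Npy (r = 0.51) and with Sst (r = 0.48), given above.

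**Figure D4:**
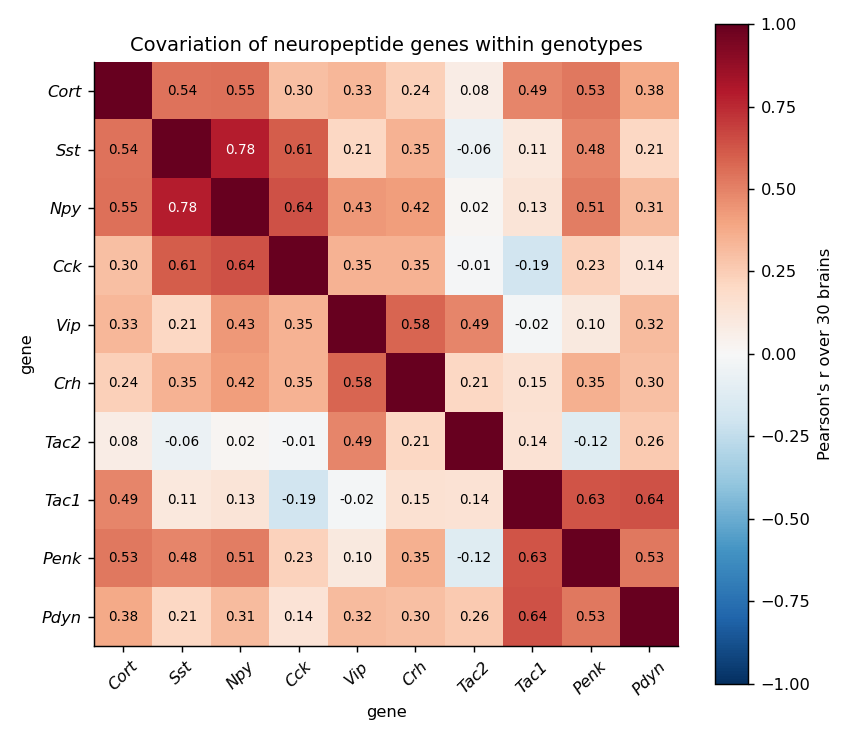
Pearson's r over 30 brains between deviations of each pair of neuropeptide genes from their genotype means (both axes list the genes; colour runs from -1 to 1). Sst, Npy and Cck form a block with r of 0.61 to 0.78, Tac1, Penk and Pdyn form another of 0.53 to 0.64, and Cort has r of 0.49 to 0.55 with Sst, Npy, Tac1 and Penk. The blocks are not separate, since Penk has r of 0.51 with Npy and 0.48 with Sst.

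Markers of striatal projection neurons other than peptides moved with the striatal precursors. The list held 11 genes, among them Drd1, Drd2, Adora2a and Ppp1r1b. It was 1 of 4 neuron lists set against each of the 10 precursors, 40 pairs in all, of which 14 passed. The share that would pass with other genes in place of the precursors was not measured. Penk followed the striatal list most closely, at r = 0.86 (rho = 0.79, both with permutation p = 1e-05, adjusted p = 0.0002). It was 0.71 without WT replicates 2 and 10, 0.86 in cohort 1 and 0.84 in cohort 2. WT replicate 2 had the lowest striatal list mean of all, 6.74, together with the lowest Penk, 10.75, and the lowest Tac1, 6.82. WT replicate 10 had the highest striatal list mean, 7.30, and the highest Penk, 11.42. Pdyn followed the list at r = 0.60 (rho = 0.68, permutation p = 0.00042, adjusted p = 0.0042; rho p = 9e-05; 0.56 without the 2 farthest brains, 0.57 in cohort 1, 0.60 in cohort 2). Tac1 followed it at r = 0.53 (rho = 0.50, permutation p = 0.00257, adjusted p = 0.0171; rho p = 0.00549; 0.45, 0.67 and 0.35).

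No gene of the striatal list was called between KO and WT. The list's mean over genes was 6.74 to 7.30 in WT (median 7.08), 6.96 to 7.20 in HET (median 7.12) and 7.02 to 7.24 in KO (median 7.10). The median difference of its genes was 0.00, and 0 of 11 were called, beside 1.00% of all genes kept. Gpr6 was nearest, at 0.16 ± 0.07 (limma adjusted p = 0.334). Its part in the Tac1 difference was not tested. Without WT replicate 2 the Tac1 difference of KO from WT was 0.19 ± 0.05. In the cortex, Cck followed the list of excitatory neurons, among them Slc17a7 and Camk2a, at r = 0.70 (rho = 0.72, both with permutation p = 1e-05, adjusted p = 0.0002; 0.69 without the 2 farthest brains, 0.60 in cohort 1, 0.78 in cohort 2). Npy followed it at r = 0.62 (rho = 0.58, permutation p = 0.00035, adjusted p = 0.0042; rho p = 0.00094; 0.61, 0.58 and 0.61). The list of interneuron genes without peptides, such as Gad1 and Lhx6, had a negative r with Sst (-0.44, rho = -0.44, permutation p = 0.0132, adjusted p = 0.0438; rho p = 0.0159; -0.42, -0.38 and -0.29). With sex, cohort and RIN removed as well it was -0.25 and no longer passed (permutation test, adjusted p over the 40 pairs = 0.321). Beside Tac1 with the hypothalamic list, given with that list below, 7 other pairs passed. Npy (r = 0.50) and Sst (0.44) varied with the striatal list, Sst (0.44) and Vip (0.51) with the excitatory list and Tac2 (0.47) with the hypothalamic list. Cck had a negative r with the interneuron list (-0.46) and with the hypothalamic list (-0.45). With sex, cohort and RIN removed, Npy with the striatal list and Vip with the excitatory list still passed, and the other 5 did not, Cck with the interneuron list falling to -0.15 (permutation test, adjusted p = 0.591). Cort passed with no list, its highest r being 0.41 with the excitatory list (rho = 0.39, permutation p = 0.0236, adjusted p = 0.0628; rho p = 0.0327).

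**Figure D5:**
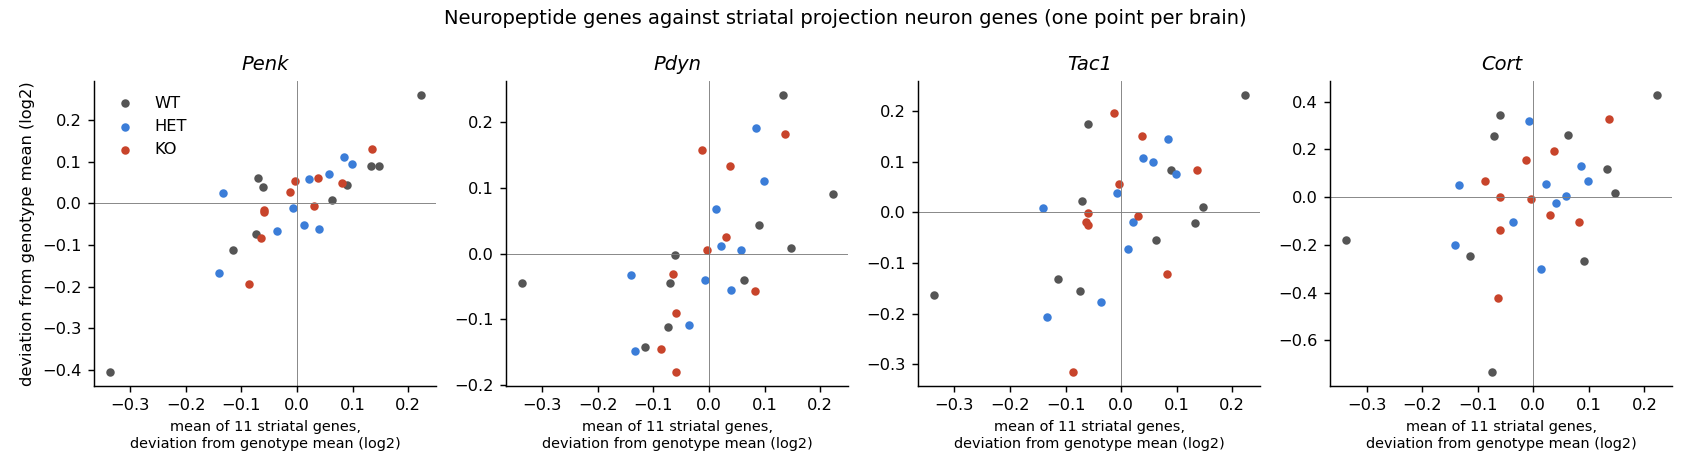
Deviation of Penk, Pdyn, Tac1 and Cort from the genotype mean (log2, vertical axis) against that of the mean of 11 striatal projection neuron genes (log2, horizontal axis), 1 point per brain, coloured by genotype. Penk follows the list with r = 0.86, Pdyn with 0.60 and Tac1 with 0.53.

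The genes most like each precursor were ranked by r of the residuals of the full model over 30 brains, among 18867 genes with a mean above 2, as a description. For Penk the first was Pde1b (r = 0.89), a phosphodiesterase abundant in striatal projection neurons. For Tac1 the first was Penk (0.69), followed by A830012C17Rik (0.68), a gene that overlaps Penk by 499 bases, so that reads of both may not be told apart without strand. For Sst they were Tmem151a (0.77) and Npy (0.73), and for Npy the calcium channel subunit Cacnb3 (0.79) and Rtn2 (0.77). For Cort they were Cplx3 (0.75), a complexin that regulates vesicle fusion, and 9430016H08Rik (0.74). For Cck they were Arf5 (0.85), a small GTPase, and Mfsd12 (0.77). For Tac2 they were Pam (0.70), the enzyme that amidates peptides, and Scml4 (0.69). For Crh they were Crem (0.67), a transcription factor that binds the cAMP response element, and Gm26935 (0.65). For Pdyn they were Gpr83 (0.78) and Klhl13 (0.75), and for Vip Arl15 (0.68) and Teddm2 (0.68).

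No receptor and no gene of the machinery that makes peptides was called in KO against WT, where 1.00% of all genes kept were called. In lists this short, 0 calls is near that share, and nothing is read from it. Of 21 receptors listed for these peptides, 20 were kept (Tacr2 was below the filter). Of the 20, 0 were called, with a median difference of -0.00 log2 (0.01 over all genes). The receptors with the highest levels were Adcyap1r1 at 8.69, Crhr1 at 7.29, Cckbr at 7.20 and Sstr1 at 6.71, while the substance P receptor Tacr1 stood at 4.45. Vipr2 showed the largest difference, 0.18 ± 0.08 (limma adjusted p = 0.343), followed by Sstr4 at -0.12, Oprk1 at 0.10 and Crhr2 at -0.08. Of 12 processing and dense-core vesicle genes 0 were called (median 0.01), with the granin Scg2 at 0.12 ± 0.05 (adjusted p = 0.335), Pcsk1n at -0.09, Chga at 0.06 and the convertase Pcsk1 at -0.06. Of 7 genes of peptide breakdown and binding 0 were called (median -0.01), with Dpp4 at -0.18, Ace at -0.13, Crhbp at 0.05 and Ece1 at -0.04.

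Other forebrain peptides gave 0 of 12 calls, beside 1.00% of all genes kept, with a median of 0.09. Adcyap1, the precursor of PACAP, stood at 0.14 ± 0.05 with 9 of 10 KO brains above the WT mean (limma adjusted p = 0.211), Cartpt at 0.26 ± 0.19, Ucn at 0.78 ± 0.41 and Tac4 at 0.33 ± 0.45. Activity-regulated genes gave 0 of 12 calls, beside the same 1.00%, with a median of -0.42. Arc stood at -0.66 ± 0.25 (adjusted p = 0.239), Fos at -0.78 ± 0.31, Egr2 at -0.66 and Btg2 at -0.50.

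Over all genes kept, 1.00% were called in KO against WT, 0.279% higher and 0.722% lower. Among marker lists of cell types, oligodendrocyte genes moved with genotype beside Cort and Tac1. Of 10, 9 fell and 0 rose (Opalin most, by 0.49 ± 0.08, limma adjusted p = 0.000525), and the mean of the list was 9.22 to 9.44 in WT, 9.20 to 9.36 in HET and 8.97 to 9.26 in KO. Its part in the differences of Cort and Tac1 was not tested. Interneuron genes without peptides gave 0 of 12 calls (median -0.04; 7.90 to 8.02 in WT and 7.84 to 7.97 in KO), with Lhx6, the transcription factor of Sst and Pvalb interneurons, at -0.11 ± 0.05 and Lamp5 at -0.10 ± 0.05. Excitatory neuron genes gave 0 of 10 (median -0.02, Nrgn -0.10, Tbr1 0.08) and hypothalamic peptide genes 0 of 8 (median 0.03, Pomc 1.02 ± 0.56, Hcrt 0.27). The hypothalamic list ran from 5.51 to 6.05 in WT and from 5.05 to 6.80 in KO, and Tac1 followed it at r = 0.54 (rho = 0.39, permutation p = 0.00197, adjusted p = 0.0158; rho p = 0.0348; 0.48 without the 2 farthest brains, 0.33 in cohort 1, 0.71 in cohort 2). That pair did not pass with Spearman's rho (permutation test, adjusted p = 0.0994) or with sex, cohort and RIN removed (r = 0.42, adjusted p = 0.0761). Of 8 genes each, 1 rose in astrocytes (Gfap, 0.22) and 1 in microglia (C1qb, 0.18), and 1 fell in endothelial cells (Tek, -0.21), with 0 called in the opposite direction in each list. The astrocyte and microglia lists as a whole did not rise, with medians of -0.002 and 0.015. Among their genes not called, Slc1a3 of astrocytes stood at -0.08 ± 0.03, with all 10 KO brains below the WT mean (limma adjusted p = 0.232). Cx3cr1 of microglia stood at -0.08 ± 0.03 (limma adjusted p = 0.328). Other endothelial genes were near the threshold, Cldn5 at -0.44 ± 0.11 (limma adjusted p = 0.0567) and Pecam1 at -0.17 ± 0.05 (adjusted p = 0.0927), and the median of that list was -0.09. No listed marker was missing from the table.

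Position gives further context for the 2 genes. Tac1 lies on chromosome 6 from 7554879 to 7565834 (mm10), 5.50 Mb from the start of Tmem106b. Within 10 Mb of Tmem106b 88 other genes were kept, among them Tac1. Of the 87 besides Tac1, 1 was called, lower in KO, which is 1.15% beside 1.00% of all genes. Cort lies on chromosome 4 from 149125034 to 149126763 and overlaps no other gene of the table. Its neighbours Apitd1, 357 bases away, and Dffa, 4386 bases away, stood at -0.03 ± 0.09 and -0.04 ± 0.03 in KO against WT (limma adjusted p = 0.946 and 0.679).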

How the data were processed

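The submitters' processing notes name TopHat2 2.0.12, Bowtie 1.1.0 and the mm10 build. RNA selection, counting tool, annotation release and strand setting are items not given in the sources used here. As the values, the authors deposited 1 table of log2 RPKM values that had passed through conditional quantile normalization (named in the table's title), with a length per gene. Depth is unknown, so precision was judged from the spread between mice. The values were used as deposited, with no pseudocount. Genes with a mean above 0 were fitted in limma 3.58.1 (R 4.3.3) over 30 libraries with genotype, sex, cohort and RIN (eBayes with intensity trend, two-sided), p values were adjusted by Benjamini-Hochberg over 23695 genes, and a call is an adjusted p under 0.05. Intervals are 95% from the SE of the fit. The fit and the correlation test were checked on simulated data. Correlations used 100000 permutations of deviations from genotype means. The plate column in the titles, other filters and scalings, each cohort or sex alone and each library left out were tried as alternatives. Genes named are all members, the 2 genes most like each, and from each fixed list the called genes and the largest other differences, up to 4 in pathway lists and up to 2 in marker lists, and 1 gene that this rule names is not reported here. Members and lists were chosen with earlier results of these data known. Replicate numbers follow sample order and pair nothing. Drd1 is listed under its older symbol Drd1a.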

Additional observations from a re-analysis of the deposited data

Results flagged for a closer look

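In 33 groups of 10 brains (11 genes in 3 genotypes), a brain stood far from the rest in 3, and chance alone flags about 1 group in 20. Npy in HET replicate 8 was 9.04, with the next lowest brain at 9.28. That brain also had the second lowest striatal list mean, 6.96. Tac2 in HET replicate 4 was 6.25, with the next lowest at 6.62. Crh in WT replicate 10 was 5.63, with the next highest at 5.22.

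The Penk values of KO brains lay on opposite sides of the WT mean in the 2 cohorts, with neither cohort's difference called. Every KO brain of cohort 1 lay above the WT mean of that cohort, and every KO brain of cohort 2 lay below the WT mean of that cohort. The means were 11.08 in WT and 11.20 in KO in cohort 1, and 11.27 in WT and 11.18 in KO in cohort 2. The difference between the cohorts was -0.212 (limma interaction, adjusted p = 0.591), so it did not pass over all genes. Without WT replicate 2 the difference between the cohorts was -0.138 (adjusted p = 0.651) and 5 of 6 KO brains of cohort 1 lay above the WT mean. Without WT replicate 10 it was -0.157 (adjusted p = 0.707) and 2 of 4 KO brains of cohort 2 lay below the WT mean.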

How the results depend on the processing

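Of 3350 values of single members under alternatives, 3330 stayed on their side of the threshold, 13 lost a call and 7 gained one. A reversal was counted only where a call was present, and 0 were found. Most values were not called, and their signs could change: Npy in KO against WT was 0.08 in the main fit and -0.07 in males alone. In KO against WT, 2 members were called. That contrast chose Cort and Tac1, so their calls under alternatives drawn from the same libraries are a description and no independent support. The count was 1 with genotype alone (Tac1 lost) and 0 with only the 2 groups in the fit, in cohort 2 alone, in females alone and in males alone, which hold fewer samples. It ran from 1 to 2 with single libraries left out: Tac1 lost its call without KO replicate 3, 4, 5 or 8 (0.20, 0.21, 0.20 and 0.20), and Cort kept its call in all 30. All genes called, 237, became 144 with genotype alone, 114 with the 2 groups, 482 in cohort 1 alone, 4 in cohort 2 alone, 13 in females, 15 in males, 138 without WT replicate 4 and 388 without KO replicate 10. The 79 genes called by sex became 9087 with no filter, where 2 members passed, 35 with the plate column, 41 with no trend, 24 and 17 in each cohort alone, and 16 with the lower quartile of each library as a term, chosen after the data were seen. The 4150 called by cohort became 100 in females and 1429 in males, the 1 of HET against WT became 4 with genotype alone, the 15 by RIN ran down to 0 and the 8 by genotype and cohort ran from 0 to 15. Cohort 2 against cohort 1 gave 0 to 1 members with single libraries left out. The 14 pairs of members with marker lists became 7 both with residuals of the full model and with Spearman's rho, the latter chosen after the data were seen, while the 15 pairs of members became 14 and 13. No paired analysis was possible because the labels give no replicate numbers.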
